A study of Mus musculus with 101 samples.

Results

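The genes described here encode the subunits of the mitochondrial respiratory chain and the ATP synthase that come from the nuclear genome. They were taken by symbol from the table of gene counts: symbols beginning with Ndufa, Ndufb, Ndufc, Ndufs, Ndufv, Uqcr, Atp5 or with Cox4 to Cox8, and Sdha, Sdhb, Sdhc and Sdhd with the symbols that extend these letters. This took 91 of the 15423 genes. Of these, 36 belong to complex I (7 core subunits and 29 accessory subunits), 4 to complex II, 8 to complex III, 17 to complex IV (11 common subunits and 6 tissue isoforms) and 15 to complex V, the ATP synthase (5 subunits of the F1 head and 10 of the Fo part and the stalks). The remaining 11 carry such symbols without being subunits of a mature complex: the complex I assembly factors Ndufaf1 to Ndufaf6, the complex II assembly factors Sdhaf1 and Sdhaf2, and Cox7a2l, Atp5s and Atp5sl. These 11 are called the assembly group below.

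Complex I takes electrons from NADH and complex II takes them from succinate, complex III passes them to cytochrome c, and complex IV hands them to oxygen. The proton gradient that complexes I, III and IV build drives complex V, which makes ATP. Primordial germ cells of the mouse lean on this pathway more than pluripotent stem cells do, and at the stage studied female germ cells are about to enter meiosis while male germ cells stop dividing.

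The study asked whether benzo[a]pyrene (BaP), a product of incomplete combustion, given to a pregnant mouse alters the germ cells of her descendants. Pregnant F0 dams received BaP by mouth at a low dose of 0.033 mg/kg-day, a mid dose of 0.2 mg/kg-day or a high dose of 2 mg/kg-day, or sesame oil alone as vehicle. RNA came from EGFP-positive cells that were sorted from E13.5 gonads of F1, F2 and F3 embryos, 1 library per embryo. All animals were OG2 mice, which carry a Pou5f1-EGFP transgene (B6;CBA-Tg(Pou5f1-EGFP)2Mnn/J) on a C57BL/6J background, so a cell was collected only if this promoter was active in it. Sex was read from the shape of the gonad. Dosing ran from E6.5 to E11.5 for the F1 embryos and from E6.5 to E15.5 for the lineages that gave the F2 and F3 embryos, so generation and dosing window cannot be told apart between F1 and the later generations.

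There were 48 female and 53 male embryos, from 56 dams. In F1, the vehicle, low, mid and high groups held 5, 2, 5 and 5 females and 5, 2, 6 and 8 males. In F2, they held 6, 3, 3 and 3 embryos of each sex. In F3, they held 6, 4, 2 and 4 females and 6, 4, 4 and 3 males. Reads assigned to the genes of the table, recovered for all but 2 libraries, ran from 5004382 to 87240533 with a median of 7789673. 11 libraries of F1 held at least 21247642 such reads, while the deepest of the others held 12211582.

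The sorted cells carried the RNA of germ cells. All 8 germ cell markers listed were present, and their summed normalized count in vehicle embryos was 3873 ± 487 (SD, n = 17) in females and 4118 ± 665 (SD, n = 17) in males, with Dppa3 the most abundant. The meiosis markers summed to 1141 ± 789 in females and 197 ± 107 in males, and the 4 male fate markers to 1.70 ± 0.991 and 115 ± 19.3. Markers of Sertoli cells, the supporting cells of the fetal testis, also moved with sex. Their sum was 22 ± 6.50 in females and 558 ± 287 in males, mostly from Cst9 (0.0865 and 410), whereas the defining genes Amh (0.0103 and 2.72) and Sox9 (0.0381 and 5.90) were near 0 in females and low in males. The mean erythroid sum, led by Hba-a1, was 14.5 (lowest 0, highest 223) in vehicle females. It was 426 (lowest 0.189, highest 4772) in vehicle males and 294 (lowest 0.272, highest 1653) in high-dose females. The mean in vehicle males is far above their median, which is given at the end. The sums were small for the 7 pregranulosa markers present (4.72 in females and 23.9 in males), the 5 fetal Leydig markers (3.32 and 8.55), the 5 stromal markers (1.18 and 2.72), the 3 endothelial markers present (33.1 and 23.7, nearly all Pecam1) and the 7 macrophage markers present (17.5 and 14.4). Fewer cells of a type and less RNA per cell cannot be told apart in bulk samples, and what these markers contribute to the values below was not tested.

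Among the libraries that stood apart from their group, which the closing section lists, the F1 vehicle male C4232-2 had the lowest level of complex III among the F1 vehicle males, 7.74 on the log2 scale against 8.87 to 9.33 in the other 4, and the counts called between the sexes are also given without it. Here and below, the level of a complex in an embryo is the median over its subunits of log2(normalized count + 0.5), given as a description with no test.

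The respiratory chain genes were among the most abundant messages of these cells. Together the 91 members took 4.55% ± 0.658 (SD over all embryos) of the summed normalized counts of an embryo, from 2.74% to 6.79%. Complex I took 1.86% of the sum, complex V 1.07%, complex IV 0.925%, complex III 0.426%, complex II 0.145% and the assembly group 0.125%. Per kilobase of transcript, the median level of the members in vehicle embryos was 421 normalized counts, against 2.12 over the 14369 genes with a known transcript length. The 11 common subunits of complex IV were highest, with a median of 1030 counts per kilobase, followed by complex V with 696, complex III with 637, complex I with 452 and complex II with 172. The assembly group lay lower, at 40.8, and the tissue isoforms of complex IV lower again, at 7.90.

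On this per-length scale Cox7c, a small subunit of complex IV, stood first with 2436 counts per kilobase, ahead of the complex I accessory subunit Ndufb8 with 1862, the complex III subunit Uqcr11 with 1844 and Cox4i1, the common form of the regulatory subunit 4 of complex IV, with 1704. The catalytic subunits were not at the top. Atp5b, the catalytic subunit of the ATP synthase, had 508 counts per kilobase, Sdha, which binds the flavin of complex II, had 33.8, and Ndufs1, the largest core subunit of complex I, had 45.7. Reference transcripts differ in length between members, with 50 of the 91 under 1000 bases, and what this adds to the order was not tested.

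Complex IV has subunits with a second copy used in particular tissues, and the germ cells used 2 of these second copies at a clear level. Cox7a1, the heart and muscle form of subunit 7a, made up 29.8% ± 3.5 (SD, n = 17) of the summed per-length level of Cox7a1 and its common counterpart Cox7a2 in vehicle females and 17.4% ± 3.39 (SD, n = 17) in vehicle males. Cox6b2, the testis form of subunit 6b, made up 18.9% ± 2.64 of the sum with Cox6b1 in females and 14.1% ± 3.40 in males. The others were minor: the testis forms Cox7b2 (2.19% and 1.73% with Cox7b) and Cox8c (1.20% and 0.710% with Cox8a) and Ndufa4l2 (0.430% and 0.447% with Ndufa4). Cox4i2, the lung form of subunit 4, was close to absent. It was listed at 0 in 1 of the 17 vehicle females and in 11 of the 17 vehicle males, made up 0.0395% and 0.00523% of its sum with Cox4i1, and was the 1 member whose mean was below the minimum for testing, so 90 of the 91 members were tested.

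The c-ring of the ATP synthase is built from a single protein that 3 genes encode. Atp5g3 had the highest per-length level in vehicle females, with 1037 counts per kilobase against 636 for Atp5g2 and 369 for Atp5g1. In vehicle males the order was the same, with 822, 630 and 430. This order rests on the reference lengths, 4715 bases for Atp5g1 against 723 for Atp5g3 and 731 for Atp5g2, and in counts Atp5g1 is the highest (1739 in females and 2028 in males). Atp5g3 made up 61.9% ± 2.39 of its sum with Atp5g2 in females and 56.6% ± 4.62 in males.

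Across all embryos most of the members moved together. Of the 4005 pairs of tested members, 74.4% had a positive Spearman correlation, with a median of 0.44. The closest pair was Ndufa4, a subunit of complex IV, with Atp5j, which couples the F1 and Fo parts of the ATP synthase (Spearman 0.99 over the 48 females and 53 males; 0.99 in females and 0.98 in males alone). It was followed by the complex I subunit Ndufb2 with Atp5j2 of the ATP synthase (0.98) and by the complex I subunit Ndufa13 with Uqcr11 of complex III (0.98), so each of these 3 pairs joined different complexes. The embryos share litters, and all points share their library and its scaling, so these values describe the table and carry no p.

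A smaller group ran the other way. When each member was set against the median of all the others, 76 members were positively correlated and 14 negatively. Among the 14 were Atp5b and Atp5a1 of the F1 head (-0.70 and -0.68), Ndufv1 and Ndufs1 of the complex I core (-0.64 and -0.50), Sdha and Sdhc of complex II (-0.51 and -0.29) and Uqcrc1 and Uqcrc2, the core proteins of complex III (-0.38 and -0.21). Ndufab1, the mitochondrial acyl carrier protein, and Atp5b gave a Spearman correlation of -0.93. The groups also differ in size: the 14 have a median transcript length of 1968 bases, and 1 of them is under 1000 bases, whereas the 76 have a median of 764 bases. Between complexes, the levels of III and IV had a Spearman correlation of 0.90 and those of I and V of 0.81, while those of I and II had -0.01. The level over all members correlated with that of the 85 cytosolic ribosomal protein genes at 0.77, and with reads per library at -0.22.

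The first comparison asks how the germ cells of the sexes differ without BaP, in 17 male and 17 female vehicle embryos of all generations. In 15 litters a vehicle brother and sister were both sampled, and the main test does not use this pairing. A smaller share of the respiratory chain genes than of all genes was called between the sexes, with no test of that difference. 7 members were higher in males and 25 were higher in females (limma, adjusted p under 0.05), which is 35.6% of the 90 tested, against 56.5% of all 13288 genes. Differences were also small, with a median absolute log2 difference of 0.19 over the members and 0.39 over all genes. This was not particular to the members: of the 85 cytosolic ribosomal protein genes 28.2% were called, with a median absolute difference of 0.15. The median of the male minus female log2 differences was -0.09 for the members and 0.00 for all genes. edgeR's quasi-likelihood test called 29 members and its likelihood ratio test 30.

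By complex, calls higher in females outnumbered those higher in males in each of complexes I to V. In complex I, 2 members were higher in males and 11 in females, with a median of -0.11, and the accessory subunits held both of the former and 10 of the latter. In complex II, 1 of 4 was higher in females (median -0.14), and in complex III, 2 were higher in males and 3 in females of 8 (median -0.22). In complex IV, 6 of 16 were higher in females and 0 in males by limma (0 higher in males at an unadjusted p under 0.05 too), with a median of -0.20. In complex V, 2 of 15 were higher in females and the median was 0.12, and in its F1 head limma called 0 of 5, with 0 at an unadjusted p under 0.05. The assembly group of 11 split, with 3 higher in males and 2 in females and a median of 0.05, and its 8 assembly factors proper gave 1 and 1. Scaling all libraries to the same sum shifted the median of all genes by -0.08, and the median of the assembly group became -0.04, while the medians of complexes I to IV stayed below 0 and that of complex V was 0.03.

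**Figure D1:**
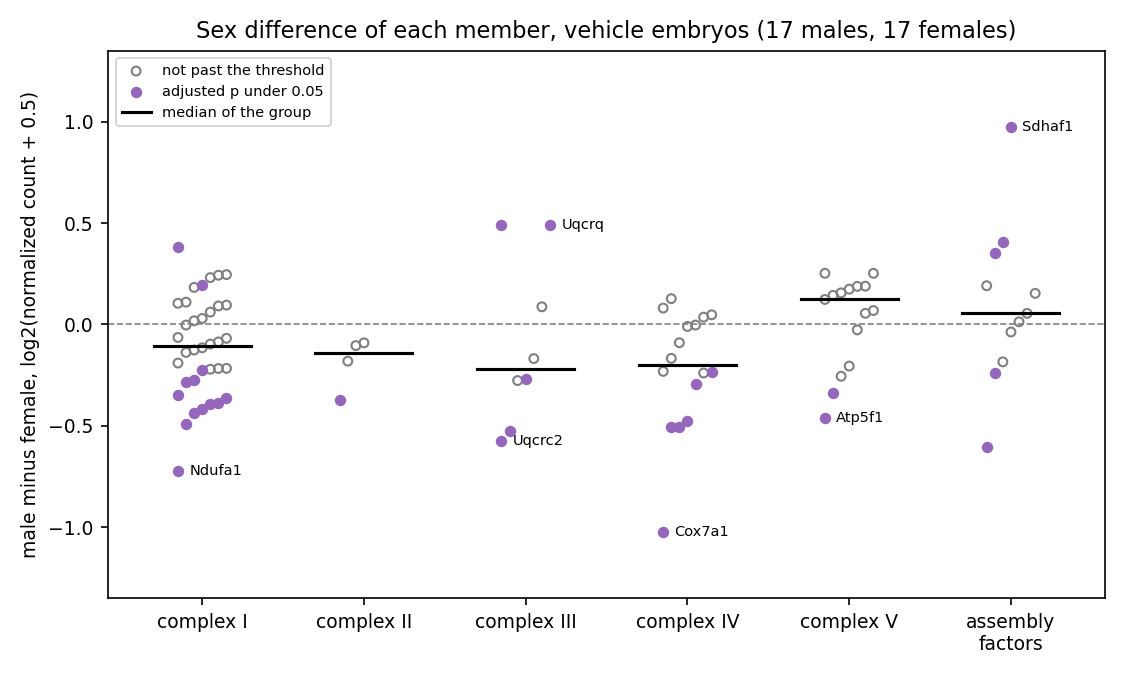
Male minus female log2 difference in vehicle embryos (y axis, 17 males and 17 females) of each tested member, grouped by complex, with members at an adjusted p under 0.05 drawn apart from the others. Complexes I to IV have medians below 0, complex V has a median of 0.12, and Sdhaf1 and Cox7a1 lie at the ends at 0.98 and -1.02.

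Complex III had the largest share of its members called, 62.5%, in both directions, which is near the 56.5% of all genes. Without the F1 vehicle male C4232-2, 2 of its 8 members were higher in males and 2 in females. Uqcrc2, core protein 2, read 232, 292 and 353 normalized counts (lowest, median, highest) in the 17 vehicle females and 115, 207 and 228 in the 17 vehicle males. Every male was below every female. The log2 difference was -0.58 (SE 0.09, adjusted p = 2.42e-08), and Uqcrc2 shares its locus on chromosome 7 with Pdzd9, which had 3.03 counts in females and 2.01 in males, so reads of the overlap cannot be assigned without strand. Its partner Uqcrc1, core protein 1, read 606, 778 and 1042 in females and 286, 561 and 807 in males. Of the males, 10 were below every female and 15 were below the female median, and the log2 difference was -0.53 (SE 0.15, adjusted p = 0.00158).

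The Rieske iron-sulfur protein Uqcrfs1, the subunit that takes electrons from ubiquinol and is put into the complex late, went the other way. It read 159, 191 and 280 normalized counts in vehicle females and 197, 272 and 406 in vehicle males. All 17 males were above the female median and 7 were above every female, so the groups overlap in part. The log2 difference was 0.49 (SE 0.08, adjusted p = 3.23e-07). The small subunit Uqcrq read 245, 377 and 628 in females and 178, 588 and 951 in males. Here 15 males were above the female median, the lowest value of all being a male, with a log2 difference of 0.49 (SE 0.15, adjusted p = 0.00294). Uqcrq overlaps Gdf9, an oocyte growth factor gene that was near the lower limit (0.439 and 0.566 counts), and its reads are uncertain to that extent. Uqcrb, another small subunit, was higher in females (log2 difference -0.27, adjusted p = 0.0480).

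In the assembly group Sdhaf1, which guards the iron-sulfur subunit of complex II during assembly, showed the largest male excess of all members. It read 7.90, 10 and 15.2 normalized counts in vehicle females and 17, 21.4 and 25.1 in vehicle males. The sexes did not overlap. The mean was 10.7 ± 2.19 (SD, n = 17) in females and 21.3 ± 2.14 (SD, n = 17) in males, and the log2 difference was 0.98 (SE 0.09, adjusted p = 4.7e-16). Cox7a2l was higher in males as well (284 ± 56.1 and 367 ± 108, log2 difference 0.35, adjusted p = 0.00952), as was Atp5sl (30.9 ± 7.70 and 41.2 ± 9.87, log2 difference 0.41, adjusted p = 0.0257). Atp5s, a coupling factor related to the ATP synthase, was higher in females (71.8 ± 18.3 and 47.5 ± 16.3, log2 difference -0.61, adjusted p = 0.000443), and so was the complex I assembly factor Ndufaf5 (71.8 and 60.8, log2 difference -0.24, adjusted p = 0.00383).

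The subunits of complex II did not share the direction of Sdhaf1. All 4 had negative differences, and Sdhc, a membrane anchor of the complex, was the 1 that passed. Sdhc read 116, 192 and 277 normalized counts (lowest, median, highest) in females and 78.0, 127 and 241 in males. Of the males, 15 were below the female median, with a log2 difference of -0.37 (SE 0.15, adjusted p = 0.0258).

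In complex IV, 4 of the 6 calls fell on tissue isoforms. Cox7a1 read 76.9, 213 and 335 normalized counts in vehicle females and 17.1, 110 and 207 in vehicle males. All 17 males were below the female median and 3 were below every female. The log2 difference was -1.02 (SE 0.21, adjusted p = 1.19e-05), while its common counterpart Cox7a2 differed by -0.00 (adjusted p = 0.985), with 831 ± 183 counts in females and 849 ± 230 in males. Cox6b2 was higher in females (93.2 ± 19.3 and 68.5 ± 21.2, log2 difference -0.51, adjusted p = 0.0108), with all 17 males below the female median. The low-level testis forms Cox8c (4.46 ± 1.45 and 3.12 ± 1.26, log2 difference -0.50, adjusted p = 0.0157) and Cox7b2 (4.88 ± 1.54 and 3.42 ± 1.31, log2 difference -0.48, adjusted p = 0.0360) were higher in females as well. So 4 of the 5 tissue isoforms tested passed, 80% against 56.5% of all genes, each higher in females. Within F1, F2 and F3 the share was 20%, 60% and 20%, against 23.8%, 41.1% and 32.2% of all genes. Ndufa4l2 did not pass in the combined comparison (3.97 and 4.02 counts, log2 difference 0.05, adjusted p = 0.853). It overlaps Shmt2, which had 7.0 and 17.2 counts, so its own level is uncertain. Of the 11 common subunits, 2 passed: Cox4i1 (1446 ± 246 and 1207 ± 299, log2 difference -0.29, adjusted p = 0.00969) and Cox5a (log2 difference -0.24, adjusted p = 0.0314).

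In the ATP synthase the catalytic head did not pass in any subunit, and both calls fell on the membrane part and its stalk. Atp5g3 read 572, 751 and 868 normalized counts in vehicle females and 413, 585 and 730 in vehicle males. All 17 males were below the female median and 6 were below every female, with a log2 difference of -0.34 (SE 0.07, adjusted p = 4.76e-05). The other copies encode the same mature ring protein and did not pass: Atp5g1 had 1739 ± 412 and 2028 ± 622 counts (log2 difference 0.19, adjusted p = 0.234) and Atp5g2 had 465 ± 43.4 and 461 ± 71.7 (log2 difference -0.03, adjusted p = 0.788). Atp5f1, the b subunit of the peripheral stalk, was higher in females (986 ± 278 and 714 ± 175, log2 difference -0.46, adjusted p = 0.000711).

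In complex I the most secure calls were the X-linked members. Ndufb11, an accessory subunit of the membrane arm, read 297, 452 and 634 normalized counts in vehicle females and 188, 311 and 474 in vehicle males. Of the males, 16 were below the female median, with a log2 difference of -0.49 (SE 0.11, adjusted p = 6.75e-05). Ndufa1, an accessory subunit needed for assembly of the membrane arm, read 203, 355 and 638 in females and 52.1, 229 and 385 in males. Here 15 males were below the female median, with a log2 difference of -0.72 (SE 0.17, adjusted p = 0.000209). The third X-linked member, Cox7b of complex IV, did not pass (415 ± 88.9 and 372 ± 88.2, log2 difference -0.17, adjusted p = 0.301). Over the 533 X-linked genes tested the median difference was -0.58 and 74.7% were negative, and over the 87 autosomal members it was -0.07. Ndufa1 overlaps Rnf113a1 and Ndufb11 overlaps Rbm10, so their counts may hold reads of those genes.

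Of the autosomal members of complex I, Ndufb6 (571 ± 120 and 434 ± 113, log2 difference -0.42, adjusted p = 0.00363) and Ndufs5 (788 ± 195 and 588 ± 144, log2 difference -0.44, adjusted p = 0.0040) were higher in females. Both are accessory subunits of the membrane arm or its base. Ndufa10 (267 ± 14.2 and 308 ± 44.2, log2 difference 0.19, adjusted p = 0.00529) and Ndufb10 (305 ± 76.4 and 400 ± 109, log2 difference 0.38, adjusted p = 0.00607) were the 2 higher in males. Ndufs1, which carries iron-sulfur clusters of the electron-input arm, was the 1 core subunit called (log2 difference -0.28, adjusted p = 0.0393).

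These counts rest in part on 1 library. Without the F1 vehicle male C4232-2, 11 members were higher in males instead of 7 and 20 in females instead of 25, 34.4% of the members against 56.2% of all genes. By complex, those higher in males and in females were then 4 and 8 in complex I, 0 and 1 in II, 2 and 2 in III, 0 and 5 in IV, and 2 and 2 in V. Thus complexes III and V no longer lean to females by calls, while the medians of I to IV stay below 0. Cox5a, Ndufb2, Ndufb7, Ndufs1 and Uqcrb lost their calls, and Atp5h, Atp5o, Ndufa7 and Ndufb3 passed as higher in males.

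**Figure D2:**
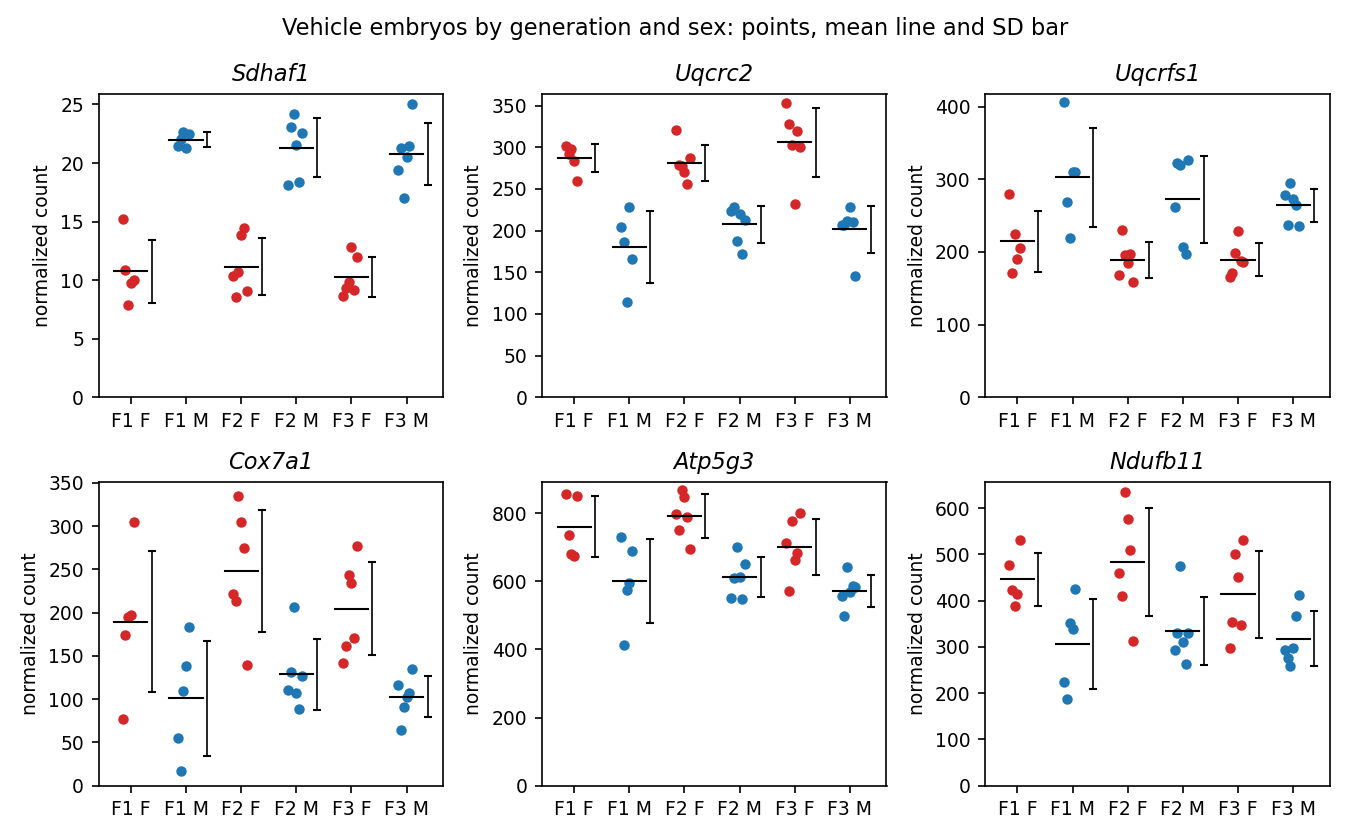
Normalized counts (y axis) of Sdhaf1, Uqcrc2, Uqcrfs1, Cox7a1, Atp5g3 and Ndufb11 in each vehicle embryo (points) by generation and sex, with the mean as a line and the SD as a bar. The sexes are fully apart for Sdhaf1 and Uqcrc2 in all generations and overlap in the other genes.

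Within each generation the same comparison called fewer members. In F1, with 5 males and 5 females, 2 members were higher in males and 2 in females (23.8% of all genes were called), with a median of -0.10. In F2, with 6 and 6, 2 were higher in males and 15 in females (41.1% of all genes), with a median of -0.12. In F3, with 6 and 6, 3 were higher in males and 3 in females (32.2% of all genes), with a median of -0.02. In each generation the members' share, 4.44%, 18.9% and 6.67%, was below that of all genes. These counts move with the settings. Scaled to the same sum, 10 members were higher in females in F1, 31 in F2 and 17 in F3. The shares called in both directions were then 13.3%, 37.8% and 22.2% of the members and 22.7%, 38.8% and 32.2% of all genes, so in F2 they were nearly equal. Leaving out 1 embryo gave from 8 to 30 in F2: with both directions, 12.2% of the members against 38.9% of all genes without D2996-1, and 38.9% against 45.0% without D3133-2. With the dam as a random block, which takes up the pairing of littermates, limma called 8 members higher in females in F1, and 6 higher in males and 7 higher in females in F3, with shares in both directions of 11.1% and 14.4% of the members against 35% and 39.3% of all genes.

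Sdhaf1, Uqcrc2 and Uqcrfs1 passed in every generation and in the same direction. The Sdhaf1 difference was 1.03 in F1, 0.92 in F2 and 0.98 in F3 (adjusted p = 0.000288, 3.12e-06 and 3.49e-05). In F1 its 5 females read 7.90, 9.71, 10, 10.9 and 15.2 counts and its 5 males 21.3, 21.4, 22.1, 22.5 and 22.7, so the groups were apart and the males lay close together. The Uqcrc2 difference was -0.71, -0.44 and -0.60 and the Uqcrfs1 difference 0.49, 0.50 and 0.48. The F1 call of Uqcrfs1 is borderline, and it did not pass in 7 of the 10 fits with 1 F1 embryo left out, while Sdhaf1 and Uqcrc2 passed in all 10. Cox7a1 passed in F2 (-0.94) and F3 (-0.99) and not in F1 (-1.17, SE 0.52, adjusted p = 0.0985), where a male, C4232-2, read 17.1 and the females ranged from 76.9 to 305. Cox8c passed in F1 alone (-1.14, adjusted p = 0.0281), with differences of -0.43 in F2 and -0.04 in F3. Whether a sex difference itself changed between generations was tested directly: limma called 0 members in any of these contrasts (0% of all genes over the 4 difference contrasts, which include the sex difference of the BaP effect), with 0 or 1 members at an unadjusted p under 0.05 and 0 by either edgeR test.

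Levels of whole complexes in single embryos overlapped widely between the sexes, and their order was not that of the median differences. For complex V the direction differed too, with a median difference of 0.12, higher in males, and a mean level higher in females. Complexes III and IV had median differences of -0.22 and -0.20 and nearly equal mean levels. Complex II was at 8.02 ± 0.23 (SD, n = 17) on the log2 scale in vehicle females and 7.78 ± 0.20 in vehicle males, complex I at 8.79 ± 0.29 and 8.64 ± 0.34, and complex V at 9.38 ± 0.25 and 9.21 ± 0.28. Complex III was at 8.96 ± 0.30 and 8.95 ± 0.40 and complex IV at 9.07 ± 0.29 and 9.08 ± 0.42. The differences in complexes I, III, IV and V were smaller than the SD between embryos.

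Other genes of mitochondria and of glucose use were called at shares both below and above that of all genes, 56.5%. Of the 6 listed chain components whose symbols fall outside the rule, 2 passed (33.3%), both higher in females: Cyc1, the cytochrome c1 of complex III (530 ± 43.7 and 399 ± 75.8, log2 difference -0.44, adjusted p = 9.65e-06), and Cyct, the testis cytochrome c (log2 difference -0.67, adjusted p = 9.07e-08). Of 21 other assembly factors tested, 28.6% passed: 3 were higher in males, led by Sco2, a copper chaperone of complex IV (7.72 and 14.6 counts, log2 difference 0.87), and 3 in females. Among 14 tested regulators of mitochondrial biogenesis, 7 were higher in males and 4 in females (78.6%). Tfam, the packaging and transcription factor of mitochondrial DNA, had 59.0 ± 10.3 and 107 ± 23.5 counts (log2 difference 0.84, adjusted p = 1.45e-12), and Tfb2m, a mitochondrial transcription factor, and Yy1 were higher in males too (0.88 and 1.22). Polg, the mitochondrial DNA polymerase, and Gabpa, an ETS factor, were higher in females (-0.59 and -0.42), and Nrf1 did not pass (-0.07, adjusted p = 0.740). In the citrate cycle 61.5% passed, near the share of all genes, 7 of 13 higher in females and 1 in males (median -0.29), among them the X-linked Idh3g (543 ± 44.8 and 264 ± 36.4, log2 difference -1.05). In glycolysis 72.2% of 18 passed, 9 higher in males and 4 in females (median 0.34), and in the mitochondrial ribosome 52.6% of 76, 31 and 9 (median 0.13). The 13 genes of the mitochondrial genome are not in the table, so the subunits made inside the mitochondrion were not measured.

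The next comparison asks whether BaP given to the F0 dam changed the members in females, with the generations combined: 12 high-dose females against 17 vehicle females. Most members had a small positive difference at the high dose, none passed as higher, and the 1 that passed the test was lower. The median log2 difference of the members was 0.29, against -0.02 for all genes, and 73 of 90 were positive. limma called 1 member lower and 0 higher (1.36% of all genes were called), and at an unadjusted p under 0.05 it counted 49 members higher and 11 lower, 66.7% of the members against 23.3% of all genes. The quasi-likelihood test called 0 members and the likelihood ratio test 1.

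The member called was Uqcrc1, by a narrow margin. It read 606, 778 and 1042 normalized counts (lowest, median, highest) in vehicle females and 351, 505 and 872 in high-dose females. Most high-dose females were below the vehicle range, with overlap at the top. The mean was 817 ± 136 (SD, n = 17) and 540 ± 184 (SD, n = 12), and the log2 difference was -0.65 (SE 0.16, adjusted p = 0.0476). It passed in 13 and did not pass in 16 of the 29 fits with 1 female left out, with log2 differences from -0.72 to -0.60, and it did not pass without a filter, with generation as a term or without the deep F1 libraries. Within generations it was -0.71 in F1, -0.28 in F2 and -0.84 in F3, none of which passed (adjusted p = 0.514, 0.810 and 0.243). In F3 the high-dose females D2032-2, D2204-1, D4190-2 and E0103-2 read 387, 396, 872 and 448, and the 6 vehicle females ranged from 696 to 1042, so 3 of the 4 lay below all vehicle females. In males Uqcrc1 differed by -0.11 at the high dose (adjusted p = 0.997).

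By complex, the positive differences were spread unevenly, with small groups of mixed sign. The 11 common subunits of complex IV were all positive (median 0.31), as were the 10 members of the Fo part and stalks of complex V (median 0.31), and 27 of the 29 accessory subunits of complex I were positive (median 0.33). The core of complex I was mixed, with 4 of 7 positive (median 0.13), complex II had a median of -0.09, and the F1 head of complex V had a median of -0.40 with 2 of 5 positive. None of the members of complexes I, II, IV and V passed in either direction (limma). As examples, Ndufab1 read 530, 953 and 1478 counts in vehicle females and 959, 1322 and 1975 in high-dose females, and Atp5b read 448, 894 and 1742 and 320, 697 and 917. Both pairs of groups overlap over most of their range. The level of complex I was 8.79 ± 0.29 in vehicle and 9.10 ± 0.27 in high-dose females, that of complex IV 9.07 ± 0.29 and 9.38 ± 0.40, and that of complex II 8.02 ± 0.23 and 7.84 ± 0.25. As a level per embryo the F1 head showed no drop, 8.70 ± 0.30 and 8.72 ± 0.45, and the complex I core had 8.29 ± 0.28 and 8.39 ± 0.22.

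**Figure D3:**
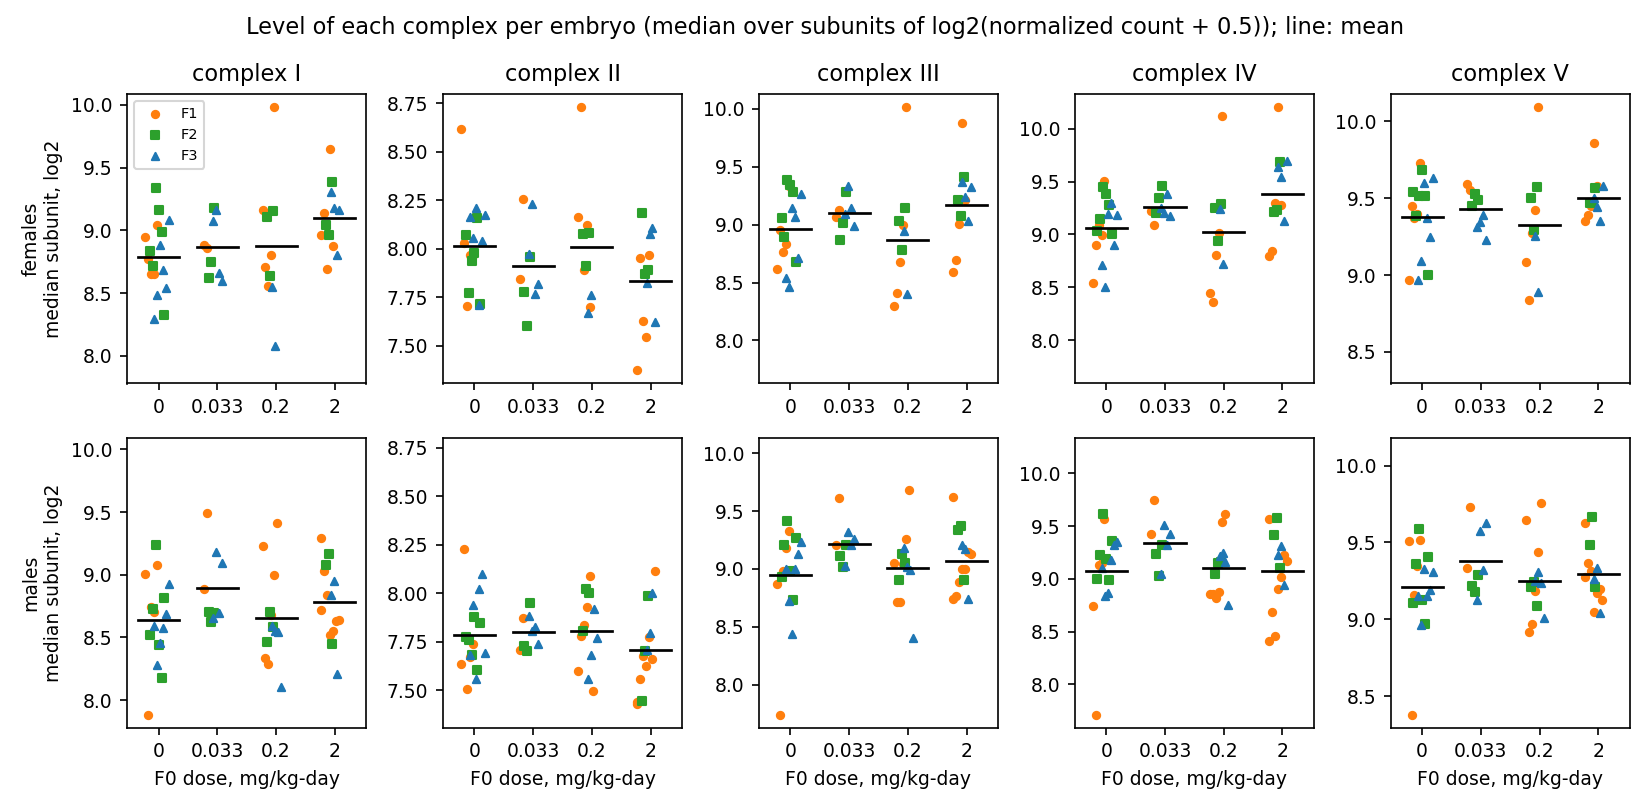
Level of complexes I to V in each embryo (y axis, median of log2(normalized count + 0.5) over the subunits) by F0 dose (x axis), females above and males below, coloured by generation. High-dose females lie above vehicle females in complexes I and IV on average, 9.10 against 8.79 and 9.38 against 9.07, with overlap in each panel.

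Short transcripts in general also had mostly positive differences, in a split chosen after the values were seen. The longer members were not matched in length to the longer of the other genes, so their medians are not directly comparable. In this comparison 1.36% of all genes were called. Among members with a transcript under 1000 bases, 46 of 49 were positive (median 0.31), and among longer ones 27 of 41 (median 0.24). Of the other genes under 1000 bases, 877 in number, 80.8% were positive (median 0.23), while the medians of those from 1000 to 2000 bases and of longer ones were -0.02 and -0.06. The 85 cytosolic ribosomal protein genes had a median of 0.22 with 78 positive, and the 76 mitochondrial ribosome genes 0.25 with 58 positive, whereas glycolysis and the citrate cycle had -0.19 and -0.12. These values by length were taken with the deposited scaling alone, and scaling to the same sum, given next, lowers the median of all genes. The part of transcript length in the members' values was not tested.

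**Figure D4:**
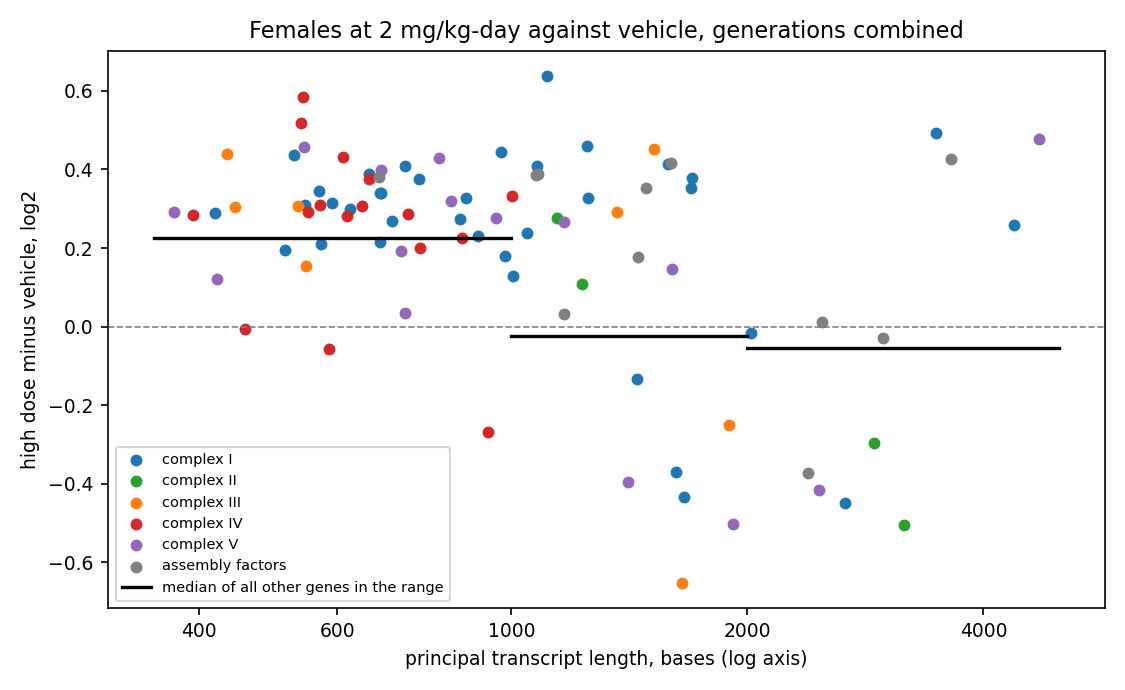
High-dose minus vehicle log2 difference in females (y axis, 12 and 17 embryos) of each member against its transcript length in bases (x axis, log scale), with black lines for the median of all other genes in each range of lengths. Members and other genes under 1000 bases both lie mostly above 0, with medians of 0.31 and 0.23.

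The size of this shift depends on the scaling. Scaled to the same sum, the median of all genes moved by -0.17 and that of the members became 0.10 with 62 positive and 28 negative, with complex II at -0.29. The calls were then mostly in the other direction, 1 member higher and 7 lower, 8.89% of the members against 7.74% of all genes. With upper quartile scaling the members' median was 0.35 and with median-of-ratios scaling 0.31. Within generations the members' median was 0.24 in F1, 0.17 in F2 and 0.44 in F3. limma called 0 members in F1 (0.00733% of all genes, 1 gene) and 0 in F2 and F3, with 0 by either edgeR test. At an unadjusted p under 0.05 there were 6, 1 and 62 members in F1, F2 and F3. These are 6.67%, 1.11% and 68.9% of the members, against 9.89%, 4.61% and 15.4% of all genes, so only F3 lay above all genes. In F3, 85.9% of the 871 other genes under 1000 bases were also positive (median 0.37), while longer ones had medians of -0.003 and -0.08. Scaled to the same sum, the members' median in F3 was 0.21. Most members move together, so their p values are not independent, and the part of transcript length was not tested.

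The number called is not stable. With the dam as a random block limma called 5 members higher and 4 lower in the combined comparison, 9 in all or 10% against 3.35% of all genes. Leaving out 1 of the 29 females gave from 0 to 28. The high-dose female D4190-2 of F3, the one with 872 counts of Uqcrc1, gave 28 when left out, 23 higher and 5 lower, 31.1% of the members against 7.66% of all genes.

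No other dose comparison called a member. Of the 26 dose contrasts, 23 called no gene at all (0% of all genes), and in males of F2 at the mid dose, where 0.145% of all genes passed, limma called 0 members, with 1 at an unadjusted p under 0.05 and 0 by either edgeR test. Over the 7 other contrasts with the generations combined the members' medians ran from 0.01 to 0.24, with 0 to 16 members at an unadjusted p under 0.05, against 1.05% to 8.67% of all genes. Over the 18 contrasts within a generation they ran from -0.25 to 0.47, with 0 to 62, against 0.183% to 15.4% of all genes, and in all of these limma and both edgeR tests called 0 members. Both ends come from groups of 2 embryos. The lowest was that of F3 females at the mid dose, where 77 of 90 members were negative. The highest was that of F1 males at the low dose, where 73 of 90 were positive. The highest median of the 7 combined contrasts was that of low-dose males, 0.24. There 15 members (16.7%) had an unadjusted p under 0.05, against 4.67% of all genes. In this contrast 85.1% of the 877 other genes under 1000 bases were also positive (median 0.20). The medians of other genes from 1000 to 2000 bases and of longer ones were 0.03 and -0.05. The part of transcript length was not tested. The dose contrasts share the vehicle embryos of their sex and generation, so their values are not independent of each other.

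The members closest to passing differed between contrasts. In F1 females at the high dose it was Ndufs1 (log2 difference -0.73, adjusted p = 0.374), in F1 males at the low dose Ndufs8, a core iron-sulfur subunit of complex I (0.55, adjusted p = 0.769), in F2 females at the mid dose Uqcrc1 (-0.47, adjusted p = 1), and in F2 males at the mid dose again Ndufs1 (0.35, adjusted p = 0.468). In F3 males at the low dose it was Cox7b2. Its 4 low-dose males read 6.55, 6.64, 7.91 and 9.73 counts and its 6 vehicle males from 1.6 to 5.71, so the groups were apart at a low level, with a log2 difference of 1.33 that did not pass (adjusted p = 0.970). The difference of the mean BaP effect between males and females called 0 members (limma; 1 at an unadjusted p under 0.05).

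Between generations the vehicle levels of the members could not be told apart by the test. Over the 6 contrasts between generations within a sex limma called 0 members and no gene (0% of all genes), the members' medians ran from -0.23 to 0.15, and 0 to 4 members had an unadjusted p under 0.05, with 0 by either edgeR test. The closest were Cox6b2 in males, F2 minus F1 (log2 difference 0.79, adjusted p = 0.879), and Atp5a1, the structural alpha subunit of the F1 head, in females, F3 minus F1 (0.47, adjusted p = 0.934). The sets of embryos differ in dosing window and depth between F1 and the later generations.

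The members are spread over the genome, on 19 chromosomes, with 9 on chromosome 7, the most on any. A few lie close together. Sdhaf1 (chr7:30321409-30322375) and Cox7a1 (chr7:30184171-30186030) are 135379 bases apart, with Cox6b1 294596 bases beyond Sdhaf1, and these neighbours have the largest differences between the sexes among the members, in opposite directions. Ndufs8 and Ndufv1 are 94725 bases apart on chromosome 19. 14 members overlap another gene of the table, and as the libraries hold no strand information the counts of these members are uncertain where the partner is expressed, as for Atp5a1 with Haus1 (400 counts in vehicle females), Atp5j with Gabpa (87.9), Cox7a2 with Tmem30a (53.2) and Ndufs1 with Gm11602 (20.4).

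Promoter windows of 300 bases, 250 before and 50 after the start of the gene, were at hand for 76 of the 91 members. The 8-letter core of NRF1, GCGCANGC on either strand, was present in 34.2% of these members, against 11.2% of the 27025 genes with a window and 20% of the 12072 that are in the count table. The ETS core CCGGAAG was present in 25%, against 9.93% and 18%, and the YY1 core AAGATGGC in 14.5%, against 3.19% and 4.70%. By complex, the NRF1 letters were found in 8 of 14 members of complex V, 9 of 32 of complex I, 3 of 3 of complex II, 2 of 5 of complex III and 1 of 12 of complex IV. The 82 windows of members were also richer in G and C, with a median of 58.5% against 52.7% for all 32851 windows. How far this goes with the motif counts was not tested. In the sex comparison 56.5% of all genes were called. Set beside the sex difference, with no test, of 26 members with the NRF1 letters, 1 was higher in males and 6 in females (median -0.13), and of 50 without, 5 and 12 (median -0.02). Of 19 members with the ETS letters, 1 and 2 passed (median -0.00), and of 57 without, 5 and 16 (median -0.09). For the YY1 letters it was 1 and 3 of 11 with (median -0.09) and 5 and 15 of 65 without (median -0.07).

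Windows are printed for the members on which the results turn: the neighbours Sdhaf1 and Cox7a1, which differ most between the sexes in opposite directions, Uqcrc1, which passed in both the sex and the high-dose comparison, and Atp5j, of the closest pair of members. All are from GRCm38.p6, written 5′ to 3′ on the strand of the gene, with matches to the motifs in capitals. Sdhaf1 (chr7:30322326-30322625, minus strand) holds 1 ETS core, and Cox7a1 (chr7:30183921-30184220, plus strand) holds none of the motifs. Uqcrc1 (chr9:108936398-108936697, plus strand) holds 3 matches to the NRF1 core close to its start, which overlap in part as the letters read the same on both strands. Atp5j (chr16:84834927-84835226, minus strand), which overlaps the ETS factor gene Gabpa, holds a YY1 core followed by an ETS core. A match describes the letters and does not show that a factor binds there.
Sdhaf1: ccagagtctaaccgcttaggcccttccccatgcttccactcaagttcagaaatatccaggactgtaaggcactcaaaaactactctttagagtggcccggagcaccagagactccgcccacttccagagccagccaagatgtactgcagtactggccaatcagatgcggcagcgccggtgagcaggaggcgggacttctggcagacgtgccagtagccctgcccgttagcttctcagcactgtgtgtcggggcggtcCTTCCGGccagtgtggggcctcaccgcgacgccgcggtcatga
Cox7a1: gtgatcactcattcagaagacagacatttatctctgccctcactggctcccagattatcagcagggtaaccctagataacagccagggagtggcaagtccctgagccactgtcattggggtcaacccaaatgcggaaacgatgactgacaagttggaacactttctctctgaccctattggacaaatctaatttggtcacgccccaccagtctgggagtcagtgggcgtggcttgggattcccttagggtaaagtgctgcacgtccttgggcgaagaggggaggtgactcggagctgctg
Uqcrc1: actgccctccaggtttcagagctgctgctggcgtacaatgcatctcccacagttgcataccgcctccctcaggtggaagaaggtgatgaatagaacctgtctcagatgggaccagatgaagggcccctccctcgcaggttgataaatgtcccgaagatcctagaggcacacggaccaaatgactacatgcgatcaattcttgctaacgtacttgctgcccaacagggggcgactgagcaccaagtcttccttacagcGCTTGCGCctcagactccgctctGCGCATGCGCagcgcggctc
Atp5j: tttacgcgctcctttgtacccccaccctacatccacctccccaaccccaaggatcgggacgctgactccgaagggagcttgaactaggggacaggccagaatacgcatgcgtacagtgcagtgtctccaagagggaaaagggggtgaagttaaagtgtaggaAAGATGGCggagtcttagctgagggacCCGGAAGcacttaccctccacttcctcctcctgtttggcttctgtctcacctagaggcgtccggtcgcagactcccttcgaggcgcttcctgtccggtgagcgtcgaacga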

How the data were processed

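RNA of EGFP-positive cells from single E13.5 embryos was read as oligo-dT primed cDNA in 101 libraries, 48 female and 53 male, of an unstranded kit. The authors deposited 1 table of 15423 genes, a signal in normalized counts. Their processing notes name Trim Galore, STAR with the mm10 genome and edgeR, without versions, and the scaling by trimmed means. Reads were recovered by dividing each library by its smallest step: in 99 of 101 libraries 100% of the values came out whole within 0.05, and those reads went to the count tests alone. Depth, as reads assigned to the genes of the table, was 5004382 to 87240533, median 7789673.

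The tests are limma 3.58.1 in R 4.3.3 on log2(value + 0.5), genes with a mean of at least 0.5, a trend in the variance, and Benjamini-Hochberg adjustment over all genes at 0.05. Groups were sex by dose over all embryos, the same within each generation, and sex by generation in vehicle embryos. edgeR 4.0.16 gave the quasi-likelihood and likelihood ratio tests; for vehicle males against females with the generations combined they called 7373 and 7444 genes, against 7502 by limma. The pipeline was tested on simulated data. Libraries were checked for technical pairing: of 184 pairs tried, none had a chi-square per degree of freedom under 5.44, so none were repeats. Littermate pairs gave a median correlation of 0.508 over 15 pairs, against -0.041 for other pairs, and the dam was tried as a block.

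Members and comparison lists were chosen with earlier results of these data known. Named genes were picked by rule: up to 4 members per complex and direction with the smallest adjusted p between the sexes, the X-linked members, the tissue isoforms and c-ring copies, the members closest to passing by dose or generation, and the 3 most alike pairs. Transcript lengths are those of GENCODE M21 (APPRIS principal) and promoter windows those of RefSeq, GRCm38.p6. Alternatives tried were other pseudocounts, filters, scalings, tests, blocks and groupings; leaving out 1 embryo at a time for the combined high-dose females, leaving out the deep F1 libraries, and the split by length were chosen after seeing the data. No embryo was left out of the tests.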

Additional observations from a re-analysis of the deposited data

Results flagged for a closer look

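Values far from the rest of their group were looked for in 97 groups of values, and 8 were found, some of them in the same embryo; chance gives about 1 in 20 groups. All values are kept in the results, and the cause was not tested.

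On the log2 scale of complex levels, the F1 high-dose male D2593-1 had a level of complex III of 9.62, against 8.74 to 9.15 in the other males of its group, and the F1 vehicle male C4232-2 had 7.74, against 8.87 to 9.33. The F3 vehicle female D3526-1 had a level of complex II of 7.71, against 8.04 to 8.21. The F3 mid-dose male D4021-2 was low in complex I, at 8.11 against 8.54 to 8.59, and in complex IV, at 8.75 against 9.16 to 9.24. The F3 vehicle male D3402-3 had a level of the assembly group of 6.65, against 5.69 to 5.96.

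In normalized counts, the F3 high-dose female D4190-2 had 872 of Uqcrc1, against 387 to 448 in the other females of its group. The F3 vehicle male D3402-3 had 5.71 of Cox7b2, against 1.6 to 3.02.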

How the results depend on the processing

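Over the alternative settings, 630 counts and medians kept their value within the limits set and 26 moved, and of the named members' differences 510 stayed the same, 16 became weaker and 3 reversed. With 1 embryo left out, 482 counts and medians stayed and 56 moved, and 986 differences of named members stayed, 47 became weaker and 3 reversed. The cause was not tested.

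The least stable result is the count of members past the threshold between high-dose and vehicle females with the generations combined, 1 as reported. It was 0 with a pseudocount of 0.1, 2 with a pseudocount of 1, 0 without a filter, 10 with a minimum mean of 5 (8 higher and 2 lower, 11.5% of the members against 4.88% of all genes) and 8 with libraries scaled to the same sum (1 higher and 7 lower, 8.89% against 7.74%). It was 0 by the edgeR quasi-likelihood test, 2 with littermates of the same sex averaged, 30 in a fit of the 2 groups alone (25 higher and 5 lower, 33.0% against 7.40%), 0 with generation as a term and 0 without the deep libraries of F1, a setting chosen after seeing the data. With the dam as a random block it was 9 (5 higher and 4 lower, 10% against 3.35%).

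Leaving out 1 of the 29 embryos, also chosen after seeing the data, gave 0 to 28 members in that comparison: 28 without the F3 high-dose female D4190-2 (31.1% of the members against 7.66% of all genes), 24 without the F2 vehicle female D2991-1 (26.7% against 5.28%), 19 without the F1 high-dose female D2587-1 or the F2 high-dose female D1669-5 (21.1% against 6.21% and 7.75%), and 18 without the F1 vehicle female C4232-9 (20% against 5.96%). It was 7 without D2580-1 (7.78% against 2.60%) and 5 without D3620-3, D2996-1 or D3526-1 (5.56% against 2.46%, 2.14% and 2.89%). It was 4 without D2204-1 (4.44% against 2.32%), 3 without C4992-1 (3.33% against 2.08%) and 2 without C4605-2 or D3001-2 (2.22% against 1.42% and 1.96%). It was 0 without any of the other 16, where 0% to 0.158% of all genes were called.

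Between vehicle males and females in F1, the 2 members higher in males became 1 without a filter and 1 in a fit of the 2 groups alone. The 2 higher in females became 1 with a minimum mean of 5, 10 with the same sum, 1 by the quasi-likelihood test and 1 without the deep libraries. With the dam as a random block they were 8 and with the dam as a fixed block 5. Leaving out 1 embryo gave 1 to 2 higher in males (1 without C3774-3, C4321-6, C4605-1, C4605-2, D1961-1, D2580-1 or D2580-2) and 1 to 5 higher in females (5 without D2580-2, and 1 without C4232-2, C4232-9, C4321-6, D1961-1 or D2580-1). With the same sum, 13.3% of the members were called in both directions, against 22.7% of all genes. With the random block it was 11.1% against 35%. Counts between the sexes printed here without a share of all genes are not read as results about the members.

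In F2 the 15 members higher in females became 31 with the same sum and 9 in a fit of the 2 groups alone. With the same sum, 37.8% of the members were called in both directions, against 38.8% of all genes. Leaving out 1 embryo gave 8 to 30 (30 without D3133-2, 8 without D2996-1, 9 without D2991-1 or D3001-1) and 2 to 5 higher in males (5 without D3133-2 and 4 without D3001-1). In F3 the 3 higher in females became 17 with the same sum, where 22.2% of the members were called in both directions, against 32.2% of all genes. With the dam as a random block they were 7 and those higher in males 6, 14.4% against 39.3%. With a fixed block those higher in females were 5. Leaving out 1 embryo gave 3 to 6 higher in females (6 without D3402-3, 5 without D1344-3 or D3651-1) and 2 to 6 higher in males (6 without D1388-1, D3402-3 or D3651-2).

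With the generations combined, leaving out 1 embryo gave 6 to 11 members higher in vehicle males, with 11 without C4232-2. Mid-dose F3 males went from 0 members, with 0% of all genes called, to 1 without D1464-2. The share of all genes in that fit is not given here, so this 1 is not read as a result. The sex difference of the level of the assembly group, -0.30 by the median over its genes, was 0.10 by their mean. Ndufa4l2 between vehicle males and females was -0.032 with the same sum, -0.017 with the dam as a fixed block, and from -0.014 to 0.10 with 1 embryo left out (negative without C4321-6). Atp5g2 was 0.021 without the deep libraries and from -0.046 to 0.0093 with 1 embryo left out (positive without C4232-2 or D3402-3).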

Other observations

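Several genes of glucose use differed between vehicle males and females. Ldhb had 690 normalized counts in females and 1584 in males (log2 difference 1.22, limma adjusted p = 3.98e-19), while Ldha had 46.1 and 18.8 (log2 difference -1.27, adjusted p = 6.38e-08), so the lactate dehydrogenase subunits ran in opposite directions. The glucose transporters did too, with Slc2a1 at 1.29 (adjusted p = 1.75e-12) and Slc2a3 at -0.66 (adjusted p = 4.11e-05). Eno1 had 298 and 754 counts (log2 difference 1.41, adjusted p = 2.06e-07).

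At the high dose, Aldoc of glycolysis was lower in females with the generations combined (log2 difference -0.72, adjusted p = 0.0481), and 3 of 76 mitochondrial and 1 of 85 cytosolic ribosomal protein genes were higher, where 1.36% of all genes were called. The meiosis gene Stra8 had 416 counts in vehicle females and 2.72 in vehicle males. The erythroid marker sum reached 4772 in 1 vehicle male, against a median of 1.44 over the 17.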
